A study of Sus scrofa with 2 samples.

Results

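Odorant receptor genes were described in single nuclei of the olfactory mucosa of newborn piglets (Sus scrofa). The members are the genes whose symbol consists of OR, 1 or 2 digits, 1 or 2 letters and 1 or 2 digits, with a further letter or a point and digit allowed, and that had at least 1 unique molecular identifier (UMI, a tag that counts each captured transcript once) in either count table. The tables listed 25880 genes, of which 98 had such a symbol and 51 also had a UMI. The other 47 were at 0 in both tables. The choice used only the symbol and the presence of a UMI, and not a comparison.

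The 2 libraries were 1 from a CFTR knockout piglet, labelled CFTR-null, and 1 from a wild type piglet, both newborn. CFTR encodes the chloride and bicarbonate channel that is lost in cystic fibrosis, and the study's title concerns olfactory defects and progenitor proliferation in that disease. Frozen olfactory neuroepithelium was sectioned, nuclei were released in a citric acid buffer, and single-nucleus libraries were made with 10x Genomics droplets. With 1 library per genotype no difference was tested: the values compare these libraries and not the genotypes, and all intervals are exact 95% intervals that cover counting error only. Where a count was 0, the limit given is 3 counts of the total, and it limits nuclei with a UMI, not nuclei that express the gene.

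Odorant receptors are G protein-coupled receptors in the cilia of olfactory sensory neurons. In the mouse a mature neuron expresses a single allele of a single receptor gene, while immature neurons can pass through a stage with several receptors at a low level. A bound odorant acts through the G protein subunit encoded by GNAL, the adenylyl cyclase encoded by ADCY3 and the cyclic nucleotide-gated channel of CNGA2, CNGA4 and CNGB1. Class I receptors, here the families OR51 to OR56, resemble those of fish and in the mouse are expressed mostly in the dorsal zone of the epithelium, and class II receptors make up the rest of the family.

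After doublet removal, 5761 knockout nuclei with a median of 2093 UMIs and 4536 wild type nuclei with a median of 2965.5 UMIs remained. CFTR was at 12.7 CPM (11 to 14.6, 192 UMIs) in the knockout library and at 87.7 CPM (83.3 to 92.3, 1500 UMIs) in the wild type library, CPM being UMIs per 1000000 UMIs of the nuclei in question. The libraries shared 8 cell barcodes. Nuclei were clustered without the receptor genes and named from marker genes: precursor-like nuclei numbered 117 in the CFTR knockout and 180 in the wild type animal, immature neuron-like nuclei 536 and 867, and mature neuron-like nuclei 924 and 890. OMP, the usual marker of mature neurons, and ANO2 are not rows of the tables used here, so the mature class rests on CNGA4, CNGB1, GNAL, ADCY3, STOML3 and other markers. Cluster 1, with 943 knockout and 29 wild type nuclei, and cluster 7, with 40 and 200, had a depth under 0.333 of that of their libraries and stayed unnamed.

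Receptor transcripts were rare in both libraries. Before filtering, the 51 receptors together had 236 UMIs in the CFTR knockout and 220 UMIs in the wild type table. In kept nuclei there were 230 receptor UMIs in 166 knockout nuclei and 208 in 125 wild type nuclei, or 15.2 CPM (13.3 to 17.3) and 12.2 CPM (10.6 to 13.9). Before filtering, 41 receptors were found in the knockout table and 44 in the wild type table, with 34 in both. Of the 51 receptors, 5 had at least 20 UMIs over both tables, 11 had at least 10, 20 had at most 3 and 8 had a single UMI. The 4 leading receptors, OR51J1, OR3A1, OR10K2 and OR4E1, held 201 of the 456 UMIs (44.1%).

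By family, class I gave 9 members of 21 symbols and class II gave 42 of 77. OR51 had 8 members of 14 rows with 71 knockout and 30 wild type UMIs before filtering, OR56 had its only row as a member with 0 and 2 UMIs, and none of the 6 OR52 rows had a UMI. Among class II families, OR10 had 7 members of 13 rows with 22 knockout and 60 wild type UMIs, and OR4 had 3 of 5 rows with 7 and 63. OR6 had 8 members of 15 rows with 34 knockout and 10 wild type UMIs, and the only OR3 row, OR3A1, had 46 and 9. The OR51, OR6 and OR3 families thus had more UMIs in the knockout table, and the OR10 and OR4 families fewer. How the authors counted reads that map to several members of this gene family is not stated in any source used here, so the split between close relatives is uncertain.

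**Figure D1:**
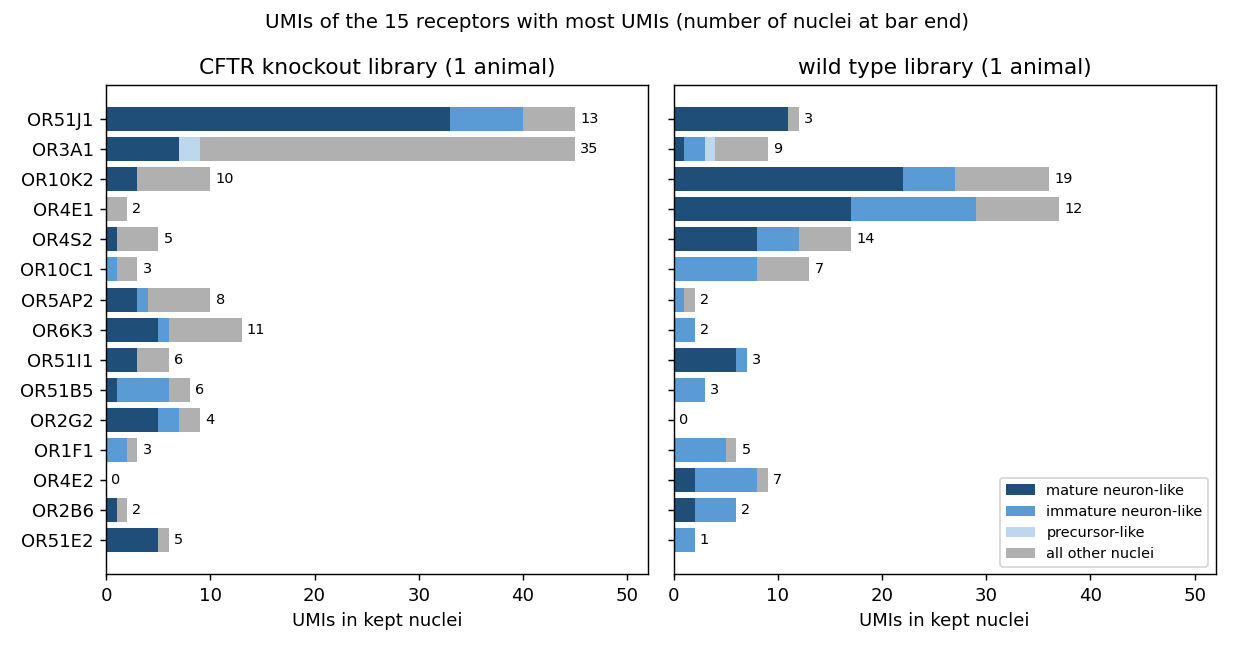
UMIs of the 15 receptors with most UMIs in kept nuclei of the CFTR knockout (left) and the wild type library (right), split by class of nuclei, with the number of nuclei that hold them at the bar end. OR51J1 and OR3A1 lead in the knockout library with 45 UMIs each, and OR4E1 and OR10K2 in the wild type library with 37 and 36, and most OR3A1 UMIs lie outside neurons.

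Receptor detection was low at every stage of the neuronal lineage. Of precursor-like nuclei, 2.56% (3 of 117) in the CFTR knockout and 1.11% (2 of 180) in the wild type animal had a receptor UMI. Of immature neuron-like nuclei it was 3.36% (2.0 to 5.26, 18 of 536) in the CFTR knockout and 4.61% (3.32 to 6.23, 40 of 867) in wild type nuclei. Of mature neuron-like nuclei it was 4.76% (3.48 to 6.34, 44 of 924) in the CFTR knockout and 4.04% (2.85 to 5.56, 36 of 890) in wild type nuclei. At this depth 880 of 924 knockout and 854 of 890 wild type mature nuclei thus had no UMI of any of these receptors, and the intervals of the libraries overlapped at each stage. Only receptors with such a symbol were counted. A nucleus with no UMI here can still hold a receptor among the 8256 rows that carry only an identifier.

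Named classes outside the neuronal lineage, which should lack odorant receptors, had a receptor UMI in 2.50% (1.99 to 3.10) of 3201 knockout nuclei and in 1.86% (1.35 to 2.48) of 2370 wild type nuclei, where the median nucleus held 2198 and 2500 UMIs, compared with 2851.5 and 3790 UMIs in mature neurons. Without OR3A1 these shares were 1.62% and 1.65%. Sustentacular-like nuclei, the supporting cells of the epithelium, had 1.36% (0.589 to 2.66) in the CFTR knockout and 2.03% (1.14 to 3.32) in the wild type animal, and glia-like nuclei had 1.11% and 0.654%. Knockout respiratory secretory-like nuclei had 4.58%, or 1.14% without OR3A1, and respiratory ciliated-like nuclei 3.66%, or 2.37%, beside 3.36% of knockout immature nuclei. The precursor-like shares were in the range of these classes and are not read as expression.

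Shares of nuclei depend on depth, so nuclei were also thinned to 1000 UMIs each, which left out 33 knockout and 20 wild type mature nuclei and 15 and 17 immature nuclei. After thinning, 1.73% (0.793 to 3.25) of knockout and 1.29% (0.648 to 2.30) of wild type immature nuclei had a receptor UMI, and 2.36% (1.46 to 3.58) and 2.07% (1.23 to 3.25) of mature nuclei. The classes outside the lineage had 1.01% (0.678 to 1.45) and 0.589% (0.314 to 1.01), with 334 and 164 shallower nuclei left out. Mature nuclei stood above the classes outside the lineage in both libraries after thinning. The intervals of immature nuclei overlapped those of the classes outside the lineage in both libraries. The unthinned order of the wild type stages, with immature nuclei above mature ones, was not kept and is not read as a difference.

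The summed receptor levels of immature and mature nuclei lay further apart than their shares of nuclei. Precursor-like nuclei had 5.16 CPM (1.06 to 15.1) in the CFTR knockout and 2.25 CPM (0.272 to 8.12) in the wild type animal. Immature nuclei had 13.9 CPM (9.15 to 20.2, 27 UMIs) and 14.9 CPM (11.5 to 19, 66 UMIs). Mature nuclei had 31.9 CPM (25.7 to 39.2, 92 UMIs) and 23.6 CPM (19 to 29.1, 89 UMIs). The order of the stages was the same in both libraries. Of the mature UMIs, 52 of 92 lay in 8 knockout nuclei and 63 of 89 in 12 wild type nuclei. The counting intervals of these levels and of their ratios are therefore too narrow. Macrophage-like nuclei of the wild type library had 29.6 CPM (13.5 to 56.1, 9 UMIs), of which 5 UMIs came from a single nucleus.

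In the knockout library the receptor level of mature nuclei was 2.30 times that of immature nuclei (1.48 to 3.68) and 3.39 times (2.50 to 4.60) that of the classes outside the lineage, which had 9.44 CPM. In the wild type library it was 1.58 times the immature level (1.14 to 2.21) and 3.85 times (2.68 to 5.58) that of the classes outside the lineage, which had 6.14 CPM. Immature nuclei had 1.47 times (0.918 to 2.29) the level of those classes in the knockout and 2.43 times (1.65 to 3.60) in the wild type library. The wild type difference between stages depended on the processing. Its log2 ratio of mature over immature was 0.66 (0.19 to 1.14) as reported, and the interval included 0 in 5 of 10 alternatives. The ratio was -0.00085 (-0.48 to 0.48) with each library clustered on its own, 0.29 (-0.20 to 0.79) with no doublet removal, 0.26 (-0.21 to 0.73) at 2 times the doublet rate, 0.27 (-0.20 to 0.75) with at least 500 genes per nucleus and 0.69 (-0.23 to 1.65) after thinning. The knockout log2 ratio of 1.20 had an interval that included 0 after thinning alone, at 0.90 (-0.16 to 2.09), of 10 alternatives. Among single receptors, OR51J1 was the only one with at least 20 UMIs over both stages in the knockout library, and it was past 2-fold higher in mature nuclei, at a background of 6.66% of 11661 genes. In the wild type library OR10K2 was past 2-fold higher in mature nuclei and OR4E1 was not, of 2 such receptors, at a background of 6.29% of 12786 genes. No such receptor was past 2-fold lower, at backgrounds of 7.81% and 12.5%.

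**Figure D2:**
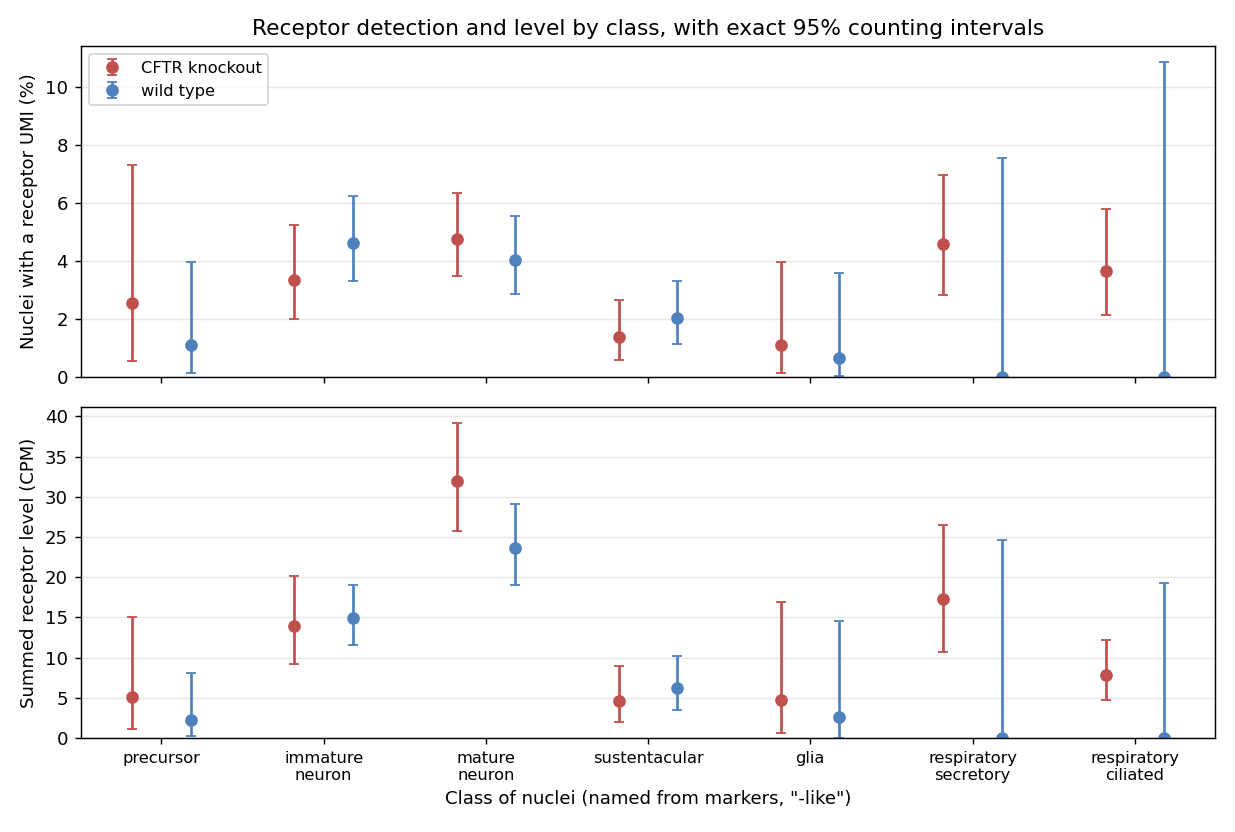
Share of nuclei with a receptor UMI (top, %) and summed receptor level (bottom, CPM) by class of nuclei in the CFTR knockout (red, left) and wild type (blue, right) library; points are the values and bars the exact 95% counting intervals. Of the 7 classes shown, the mature neuron-like class has the highest level, 31.9 and 23.6 CPM; classes not shown include wild type macrophage-like nuclei at 29.6 CPM and knockout nuclei of the unnamed clusters at 35.0 and 62.2 CPM (20 and 2 UMIs). No UMI was found in the 47 respiratory secretory-like and 32 respiratory ciliated-like nuclei of the wild type library.

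Between the libraries, the summed receptor level in mature nuclei was 31.9 CPM in the CFTR knockout and 23.6 CPM in the wild type animal, a ratio of 1.35 (0.999 to 1.83). On the log2 scale this was 0.44 (-0.0012 to 0.87), and the interval lay above 0 in 6 of 11 alternatives, for example at 0.66 (0.20 to 1.13) with at least 500 genes per nucleus and 0.76 (0.29 to 1.24) with each library clustered on its own. It included 0 in the other 5, for example at 0.16 (-0.62 to 0.94) after thinning and 0.33 (-0.10 to 0.77) with TMM scaling, so whether the libraries differed in mature nuclei depended on the processing. Of these mature levels, OR51J1 alone gave 11.5 CPM (33 UMIs) in the CFTR knockout and 2.92 CPM (11 UMIs) in wild type nuclei. Single knockout nuclei held 11, 11 and 8 of its UMIs. OR10K2 and OR4E1 went the other way, at 1.04 and 0 CPM against 5.84 and 4.51 CPM. The mature ratio without OR51J1 was not tested, so it is not shown to hold across the receptors. In immature nuclei the ratio of the summed level was 0.930 (0.571 to 1.48). Over all nuclei it was 1.25 (1.03 to 1.52), and without OR3A1 the levels were 12.2 CPM in the CFTR knockout and 11.6 CPM in the wild type animal. The log2 ratio over all nuclei was 0.32 with OR3A1, a receptor found mainly outside neurons, and 0.072 (-0.22 to 0.37) without it. OR51J1 had as many knockout UMIs as OR3A1, 45, against 12 in the wild type library, and leaving it out was not run. The higher level is therefore not shown to rest on OR3A1 in particular. The interval with OR3A1 also included 0 at 2 times the doublet rate (-0.047 to 0.52), with at least 500 genes per nucleus (-0.019 to 0.55) and with either of the other scalings.

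Different clusters held most mature neurons of each library. Cluster 3 held 806 knockout and 111 wild type nuclei, and cluster 2 held 118 and 779. In cluster 3 a receptor UMI was found in 5.21% (3.78 to 6.98) of the CFTR knockout and 1.80% (0.219 to 6.36) of the wild type nuclei, and in cluster 2 in 1.69% (0.206 to 5.99) and 4.36% (3.04 to 6.05). In each of these clusters the library with fewer nuclei had 2 receptor-positive nuclei, so within-cluster differences were not detectable at this depth. Among immature nuclei, cluster 10, which was marked by TEX15 and PURG, had a receptor UMI in 1.03% (1 of 97) of the CFTR knockout and 7.22% (4.41 to 11.1, 19 of 263) of the wild type nuclei, and cluster 9 in 3.87% (17 of 439) and 3.48% (21 of 604). The levels in cluster 10 were 2.62 CPM in the CFTR knockout and 14.3 CPM in the wild type animal, at median depths of 3069 and 4715 UMIs.

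The neuronal lineage, precursors to mature neurons, held 53.0% (46.4 to 59.6) of the receptor UMIs in 27.4% of the nuclei of the knockout library, and 75.5% (69.1 to 81.2) in 42.7% of the nuclei of the wild type library. Unnamed cluster 1 had 20 receptor UMIs in the knockout library, 35.0 CPM (21.4 to 54.1) at a median depth of 534 UMIs, and none in 29 wild type nuclei. With 943 nuclei in the knockout library it accounts for 8.70% of the receptor UMIs there. Its best scores were immature and mature neuron markers at 4 each, but genes of the respiratory epithelium such as BPIFA1 and TFF3 were among its top 10 genes by fold.

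Receptor-positive neurons held a single receptor with few exceptions. Of receptor-positive immature nuclei, 18 of 18 in the knockout (81.5 to 100%) and 39 of 40 in the wild type animal (97.5%, 86.8 to 99.9) had exactly 1 receptor. Of receptor-positive mature nuclei it was 43 of 44 (97.7%, 88.0 to 99.9) and 35 of 36 (97.2%, 85.5 to 99.9). Most of these nuclei could not show a second receptor, because they held 1 receptor UMI: 14 of 18 and 29 of 40 immature nuclei, and 32 of 44 and 22 of 36 mature nuclei. Among nuclei with at least 2 receptor UMIs, which could show more than 1, a single receptor was found in 4 of 4 and 10 of 11 immature nuclei and in 11 of 12 and 13 of 14 mature nuclei. The stages gave like shares, and with so few nuclei a difference between them was not detectable. Receptors without a symbol were not counted, so a second receptor of that kind would be missed at any depth.

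The clearest view came from the 29 neuron-like nuclei with at least 3 receptor UMIs, 11 in the CFTR knockout and 18 in the wild type animal, which were chosen after their values were seen. They had 18 different leading receptors, and 27 of the 29 held no other receptor. The leading receptor accounted for 61 of 63 receptor UMIs in the knockout nuclei (96.8%) and for 89 of 90 in the wild type nuclei (98.9%). In mature nuclei alone it accounted for 50 of 52 (96.2%, 86.8 to 99.5) and 62 of 63 (98.4%, 91.5 to 100%). The lowest part was that of a knockout nucleus in which the leading receptor gave 3 of 5 UMIs.

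The highest counts belonged to OR51J1. In the knockout library mature nuclei held 11, 11 and 8 UMIs of it, at depths of 2344, 4377 and 2965 UMIs, and an immature nucleus held 5. In the wild type library a mature nucleus held 10 at a depth of 5202 UMIs. None of these 5 nuclei had a UMI of another receptor. In the wild type library, further high nuclei held 9, 6 and 5 UMIs of OR10K2, 8 and 6 of OR4E1, 7 of OR10C1 and 5 of OR51I1. Knockout nuclei held 6 of OR3A1 and 5 of OR2G2.

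**Figure D3:**
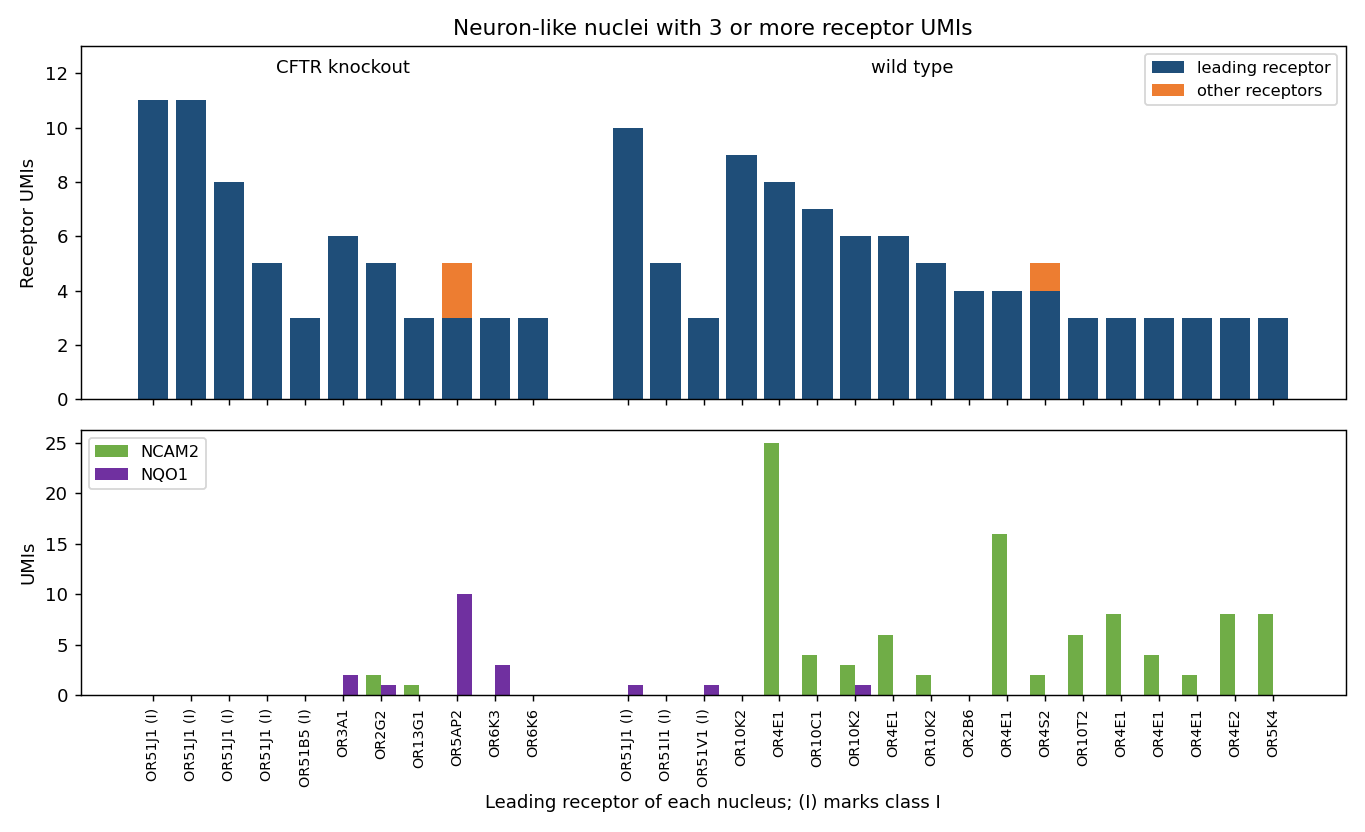
The 29 neuron-like nuclei with 3 or more receptor UMIs, knockout at the left and wild type at the right, named by the leading receptor with (I) for class I: UMIs of the leading and of other receptors (top) and UMIs of NCAM2 and NQO1 (bottom). A second receptor is seen in 2 nuclei, and NCAM2 is at 0 in all 8 nuclei with a leading class I receptor.

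The exceptions were few. A knockout mature nucleus with 8735 UMIs held 3 UMIs of OR5AP2 and 1 each of OR51I1 and OR8D1. A wild type mature nucleus with 3069 UMIs held 4 of OR4S2 and 1 of OR56B1, and a wild type immature nucleus with 13245 UMIs held 1 each of OR10K2 and OR4S2. In the lineage, each pair of receptors was therefore seen in a single nucleus. Among the other kept nuclei, a knockout nucleus of cluster 1 with 506 UMIs held 1 each of OR5D18 and OR4S2. Of the nuclei removed as likely doublets, 2 in the wild type library held 2 receptors each, OR10K2 with OR14A16 and OR10K2 with OR5AP2, at depths of 71341 and 89717 UMIs. Doublets were removed by score at an assumed rate and not by a caller's own threshold, so the part of remaining doublets in the nuclei with more than 1 receptor was not tested.

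Outside the lineage, only 2 kept nuclei had 3 or more receptor UMIs. A knockout fibroblast-like nucleus held 3 UMIs of OR3A1. A wild type macrophage-like nucleus of 27846 UMIs held 5 of OR4E1, together with 22 UMIs of NCAM2 and 19 of the immature neuron gene GAP43, beside 40 UMIs of the macrophage gene CD163. Receptor-positive nuclei outside the lineage held 1 UMI in 75 of 80 knockout and 43 of 44 wild type cases, while the lineage had more than 1 UMI in 16 of 65 and 25 of 78.

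In the neuronal lineage, 32 receptors were seen in the CFTR knockout and 32 in the wild type animal, with 19 in both, which is 59.4% of each list. In mature nuclei it was 26 and 21 receptors with 10 in both, 38.5% of the CFTR knockout and 47.6% of the wild type list. In immature nuclei it was 13 and 20 with 5 in both. Such shares depend on the number of UMIs: of receptors with 1 to 3 lineage UMIs over both libraries, 3 of 24 (12.5%) were seen in both, beside 24.8% of all 2504 genes with such counts, and of those with 4 to 9 UMIs 11 of 15 (73.3%), beside 86.0% of 1602 genes. No difference from other genes is read from these small counts. Of the 51 receptors, 6 were seen in no nucleus of the lineage. Since 20 receptors had at most 3 UMIs, a receptor found in a single library is not shown to be absent from the other.

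OR51J1, a class I receptor, had 45 UMIs in 13 nuclei of the knockout library and 12 UMIs in 3 nuclei of the wild type library. Of these, 33 and 11 lay in mature nuclei, 7 and 0 in immature nuclei, and 5 and 1 in other nuclei. The log2 ratio over all nuclei was 2.08 (1.14 to 3.14), but 83.3% of the wild type UMIs came from a single nucleus, and the counts compare 13 nuclei with 3.

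OR10K2, a class II receptor, had 10 UMIs in 10 nuclei of the knockout library and 36 UMIs in 19 nuclei of the wild type library, with 3 and 22 in mature nuclei. Its log2 ratio was -1.67 (-2.85 to -0.63). OR4E1 had 2 UMIs in 2 knockout nuclei, neither of them in the lineage, and 37 UMIs in 12 wild type nuclei, of which 17 lay in 4 mature and 12 in 4 immature nuclei. Its log2 ratio was -4.03 (-7.13 to -2.08). OR4E2 was at 0 in the knockout library and had 9 UMIs in 7 wild type nuclei, 6 of these UMIs in immature nuclei. The OR4E receptors were thus found in neurons of the wild type library and not in the 1577 lineage nuclei of the knockout library, which allows a share of up to 0.190% for each.

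OR4S2 had 5 UMIs in 5 knockout nuclei and 17 UMIs in 14 wild type nuclei, a log2 ratio of -1.59 (-3.38 to -0.09). OR10C1 had 3 UMIs in 3 knockout nuclei and 13 in 7 wild type nuclei, 7 of them in a single nucleus. OR4S2 had 4 UMIs in immature and 8 in mature wild type nuclei, and in the knockout library none in immature and 1 in mature nuclei. OR10C1 had 1 knockout and 8 wild type UMIs in immature nuclei and none in a mature nucleus of either library.

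OR6K3 had 13 UMIs in 11 knockout nuclei and 2 in 2 wild type nuclei, and OR5AP2 had 10 in 8 and 2 in 2. OR2G2 had 9 UMIs in 4 knockout nuclei, 5 of them in 1 nucleus, and none in kept wild type nuclei. All 3 were under the limit of 20 UMIs, and the log2 ratio of OR5AP2 was 2.50 (0.27 to 5.73) as reported and 1.63 (-0.12 to 3.74) with no doublet removal. OR1F1 had 3 UMIs in 3 knockout and 6 in 5 wild type nuclei and OR2B6 had 2 in 2 and 6 in 2, counts too small to separate the libraries.

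Of the other class I receptors, OR51I1 had 6 UMIs in 6 knockout nuclei and 7 UMIs in 3 wild type nuclei, and OR51B5 had 8 in 6 and 3 in 3. OR51E2, a receptor that in humans is also known from the prostate, had 6 UMIs in 5 knockout nuclei and 2 UMIs in 1 wild type nucleus. OR51V1 had 1 UMI in the CFTR knockout and 5 UMIs in the wild type animal. The intervals of the log2 ratios of all 4 included 0, for example -1.89 to 1.75 for OR51I1.

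In mature nuclei only 2 receptors had at least 20 UMIs over both libraries. OR51J1 was past 2-fold higher in the knockout library, with 11.5 against 2.92 CPM and a log2 ratio of 1.97 (0.95 to 3.11), at a background of 5.12% of 12054 genes past 2-fold higher. OR10K2 was past 2-fold lower, with 1.04 against 5.84 CPM and a log2 ratio of -2.49 (-4.87 to -0.75), at a background of 3.14% past 2-fold lower. The median of these 2 receptors was -0.26, against 0.07 over all 12054 genes. OR4E1, with 0 UMIs in knockout and 17 in wild type mature nuclei, was under the limit of 20 UMIs, and the upper end of the interval of its log2 ratio was -1.66.

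Over all nuclei, 5 receptors had at least 20 UMIs, and each was past 2-fold between the libraries. OR51J1 and OR3A1 were higher in the knockout library, at a background of 6.94% of 16099 genes, and OR10K2, OR4E1 and OR4S2 were lower, at a background of 2.97%. Their median log2 ratio was -1.59, against 0.10 over all genes. Each of these ratios rests on UMIs from at most 35 nuclei a library, with up to 11 UMIs in 1 nucleus, so their counting intervals are too narrow.

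OR3A1, a receptor that in humans responds to the floral odorant helional, was found mostly outside the lineage in both libraries. It had 45 UMIs in 35 knockout nuclei and 9 UMIs in 9 wild type nuclei, a log2 ratio of 2.50 (1.45 to 3.72). Named classes outside the lineage held 33 of these UMIs in the CFTR knockout and 5 in the wild type animal, while mature nuclei held 7 and 1. In the knockout library OR10K2 had 6 of 10 UMIs in such classes and 3 in mature nuclei, and OR4E1 had none of 2 in the lineage. In the wild type library OR10K2 and OR4E1 had 8 each in such classes, and 22 of 36 and 17 of 37 in mature nuclei. OR3A1 was the only receptor with at least 20 UMIs in classes outside the lineage.

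In the knockout library, respiratory secretory-like nuclei, which make mucus and defence proteins, had 16 OR3A1 UMIs in 15 of 437 nuclei, or 3.43% (1.93 to 5.60) and 13.2 CPM (7.55 to 21.4). Respiratory ciliated-like nuclei had 7 UMIs in 6 of 464 nuclei (1.29%, 0.476 to 2.79). Sustentacular-like nuclei had 2 in 588, at 0.340% (0.0412 to 1.22), and immature neuron-like nuclei 0 in 536, which allows a share of up to 0.560%. In the wild type library OR3A1 was not detected in the 47 respiratory secretory-like nuclei, which allows a share of up to 6.38%, so that a difference between the libraries in this class was not detectable. Respiratory secretory-like nuclei were 437 in the CFTR knockout and 47 in the wild type animal, and respiratory ciliated-like nuclei 464 and 32. The part of this difference in make-up in the OR3A1 level over all nuclei was not tested. OR3A1 was also found in neurons, with 6 UMIs in a single mature knockout nucleus that held no other receptor.

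Class I receptors made up a larger part of the receptor UMIs in the knockout library. In immature nuclei they gave 48.1% (28.7 to 68.1, 13 of 27 UMIs) in the CFTR knockout and 9.09% (3.41 to 18.7, 6 of 66) in wild type nuclei. In mature nuclei they gave 46.7% (36.3 to 57.4, 43 of 92) and 24.7% (16.2 to 35.0, 22 of 89). Counted by nuclei, which is less affected by single high nuclei, a class I receptor was present in 31.8% (18.6 to 47.6, 14 of 44) of receptor-positive mature nuclei of the CFTR knockout and 19.4% (8.19 to 36.0, 7 of 36) of the wild type animal, with overlapping intervals. Without OR51J1, class I gave 10 UMIs in 9 knockout and 11 UMIs in 5 wild type mature nuclei.

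The zonal genes NCAM2 and NQO1 also differed between the libraries. NCAM2, an adhesion gene that in the mouse marks neurons of the ventral zone, was detected in 27.8% (24.9 to 30.8) of knockout and 68.3% (65.1 to 71.4) of wild type mature nuclei, at 228 and 804 CPM. NQO1, which in the mouse marks neurons of the dorsal zone, was detected in 28.4% (25.5 to 31.4) and 13.1% (11 to 15.5), at 182 and 66.4 CPM. The labels do not say which part of the epithelium the sections came from, and the part of the sampled region in the receptor differences was not tested.

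NCAM2 was then set beside the class of the leading receptor within each library. Of mature and immature nuclei with at least 3 UMIs of a leading class I receptor, NCAM2 was found in 0 of 5 in the CFTR knockout and 0 of 3 in the wild type animal. Of those with a leading class II receptor it was found in 2 of 6 in the CFTR knockout and in 13 of 15 (86.7%, 59.5 to 98.3) in the wild type animal. With any number of UMIs, the class I nuclei had NCAM2 in 3 of 20 knockout (15.0%, 3.21 to 37.9) and 6 of 11 wild type nuclei (54.5%, 23.4 to 83.3), and the class II nuclei in 12 of 42 (28.6%, 15.7 to 44.6) and 47 of 65 (72.3%, 59.8 to 82.7). Nuclei with no receptor UMI had NCAM2 in 34.8% (32.3 to 37.3) of 1398 knockout and 71.4% (69.2 to 73.5) of 1681 wild type cases. The class I share was the lower one with both stages pooled, but not in immature nuclei, where it was 28.6% (2 of 7) in the CFTR knockout and 80% (4 of 5) in the wild type animal, beside class II shares of 27.3% (3 of 11) and 80% (28 of 35). In mature nuclei the class I shares were 7.69% (1 of 13) and 33.3% (2 of 6), beside class II shares of 29.0% (9 of 31) and 63.3% (19 of 30). By level the pooled knockout nuclei had the other order, with 245 CPM of NCAM2 in class I nuclei (17 UMIs, 16 of them in immature nuclei) and 112 CPM in class II nuclei (16 UMIs), while the wild type nuclei had 611 and 1004 CPM. The intervals of the class I and class II shares overlapped in each of these comparisons, but such overlap is not a test. A difference between the receptor classes was not tested at these small numbers, and the nuclei with at least 3 UMIs were chosen after their values were seen.

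NQO1 was set beside the receptor classes in the same way. Nuclei led by a class I receptor had it in 6 of 20 (30%) in the CFTR knockout and 3 of 11 (27.3%) in the wild type animal, and those led by a class II receptor in 14 of 42 (33.3%) and 10 of 65 (15.4%). At 3 or more receptor UMIs, NQO1 was found in 0 of 5 and 2 of 3 class I nuclei and in 4 of 6 and 1 of 15 class II nuclei. The knockout class II nuclei with NQO1 at this threshold were led by OR3A1, OR2G2, OR5AP2 and OR6K3.

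By single receptor, NCAM2 was found in 9 of 10 mature or immature wild type nuclei with OR10K2. It was found in 7 of 8 with OR4E1, in 6 of 6 with OR4E2 and in 6 of 9 with OR4S2. With OR1F1 it was found in 3 of 4, with OR6K3 in 2 of 2 and with OR3A1 in 1 of 3. Of the wild type nuclei with no receptor UMI, 71.4% had NCAM2. OR10K2 was found in 3 knockout mature or immature nuclei, 2 of them with NCAM2. Among such knockout nuclei NCAM2 was also found in 2 of 2 with OR1F1, 1 of 1 with OR4S2, 1 of 4 with OR6K3 and 0 of 2 with OR3A1. Of the class I receptors, OR51J1 was in nuclei with NCAM2 in 1 of 8 knockout and 1 of 2 wild type nuclei, OR51E2 in 0 of 4 and 0 of 1, and OR51B5 in 1 of 4 and 3 of 3. For OR51I1 it was 1 of 3 knockout and 2 of 3 wild type nuclei. No receptor led 20 or more mature nuclei, so receptors were not ranked by NCAM2.

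**Figure D4:**
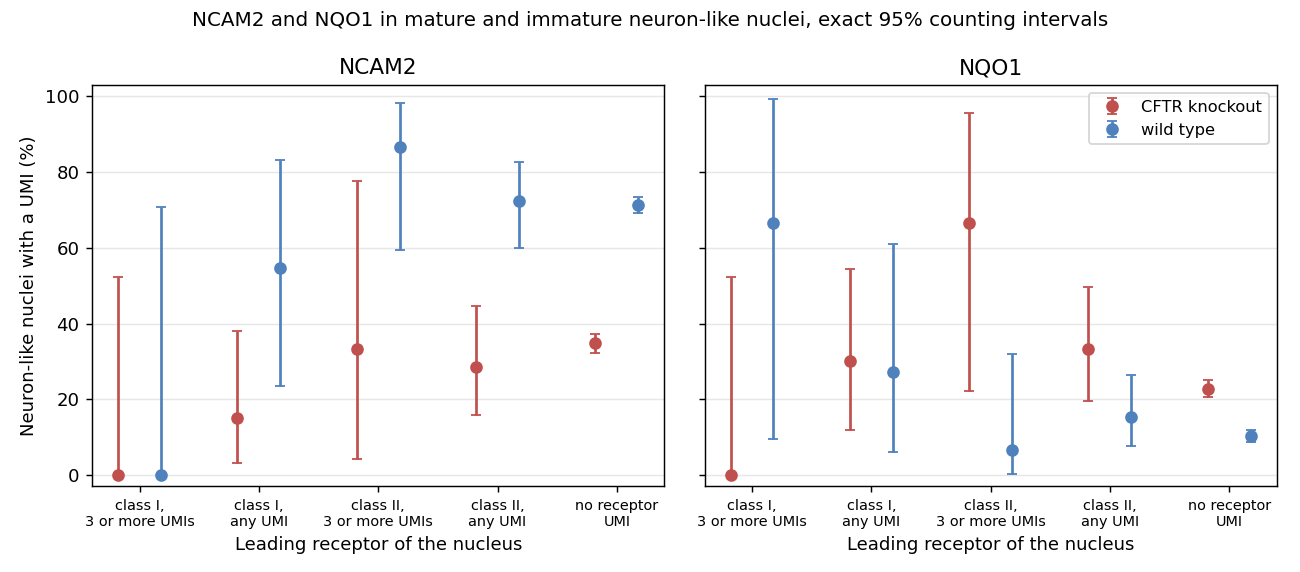
Share of mature and immature neuron-like nuclei with an NCAM2 UMI (left) and an NQO1 UMI (right), by class of the leading receptor, in the CFTR knockout (red, left of each pair) and wild type (blue) library, with exact 95% counting intervals. NCAM2 is at 0 of 5 knockout and 0 of 3 wild type nuclei with 3 or more class I receptor UMIs, and at 2 of 6 and 13 of 15 of the class II nuclei.

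The genes that carry receptors to the membrane and couple them to signalling were set beside the receptors by stage. RIC8B, an exchange factor for the olfactory G protein, had 308, 555 and 2048 CPM in precursor-like, immature and mature nuclei of the knockout library and 280, 670 and 2353 CPM in those of the wild type library. The chaperone genes RTP1 and RTP2 had 25.3 and 26.0 CPM in knockout mature nuclei and 43.3 and 30.3 CPM in wild type mature nuclei, against 19.5 and 14.4 CPM in knockout and 19.9 and 21.9 CPM in wild type immature nuclei. GNAL had 709 and 777 CPM in mature nuclei and 162 and 209 CPM in immature nuclei of the CFTR knockout and wild type animal. Of 6 genes of receptor trafficking and G protein exchange, 4 were highest in mature nuclei in both libraries, and of 6 transduction genes with a row all 6 were.

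Factors of receptor choice did not share 1 order of stages. Of 10 such genes, 1 in the CFTR knockout and 2 in the wild type animal were highest in mature nuclei, 7 and 6 in immature nuclei, and 2 and 2 in precursor-like nuclei. LHX2, a homeodomain factor that binds receptor enhancers in the mouse, had 286, 297 and 156 CPM in precursor-like, immature and mature nuclei of the knockout library and 365, 243 and 172 CPM in those of the wild type library. KDM1A, a histone demethylase involved in receptor choice in the mouse, had 406, 398 and 193 CPM and 356, 378 and 176 CPM. ATF5, a factor of the receptor feedback signal in the mouse, had 366, 859 and 1235 CPM and 352, 802 and 1332 CPM. EBF4, an olfactory transcription factor of the EBF family, had 163, 607 and 598 CPM and 96.7, 665 and 761 CPM. ATF5 was thus highest in mature nuclei in both libraries, as the receptors together were, EBF4 in the wild type library alone, and LHX2 and KDM1A were at their lowest there.

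Mature nuclei with and without a receptor UMI were close in most of these genes. The ratio of RIC8B between receptor-positive and receptor-negative mature nuclei was 0.969 (0.862 to 1.09) in the CFTR knockout and 0.973 (0.877 to 1.08) in the wild type animal, and that of GNAL 0.924 (0.750 to 1.13) and 1.03 (0.856 to 1.22). ATF5 was 1.32 times as high (1.16 to 1.5) in receptor-positive knockout nuclei and 0.967 times (0.841 to 1.11) in wild type ones. GNG13, a G protein gamma subunit, was 1.52 times as high (1.18 to 1.94) in receptor-positive knockout nuclei and 0.673 times (0.496 to 0.895) in wild type ones, which are opposite directions. CNGA4 was 2.13 times as high (1.06 to 3.89) and 1.47 times (0.872 to 2.34). NCAM2 was 0.352 times as high (0.186 to 0.606) in receptor-positive knockout nuclei and 1.05 times (0.882 to 1.24) in wild type ones.

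Depth moved with detection in most groups. Receptor-positive mature nuclei had a median of 3172 UMIs and receptor-negative ones 2832 UMIs in the knockout library, and 4446 and 3745 UMIs in the wild type library. In the wild type library a receptor UMI was found in 0 of 71 mature nuclei with 1000 to 2000 UMIs, in 3.52% of those with 2000 to 4000, in 5.08% of those with 4000 to 8000 and in 8.51% (2.37 to 20.4) of those with at least 8000. Knockout mature nuclei had 2.90%, 5.26%, 6.09% and 8.33% (0.211 to 38.5, 1 of 12 nuclei). Receptor-positive immature nuclei of the knockout library were shallower than the others, at 2195.5 against 3088 UMIs, and those of the wild type library deeper, at 5596.5 against 3899 UMIs.

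Of the trace amine-associated receptors, another family of olfactory receptors, TAAR1 was at 0 in both libraries. TAAR2 had 3 UMIs in knockout and 1 UMI in wild type mature nuclei, TAAR9 had 2 and 0, and TAAR5 had 0 in mature nuclei of both. In the knockout mature nuclei TAAR2 thus had as many UMIs as OR10K2 and fewer than OR51J1.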

How the data were processed

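Single-nucleus libraries of 1 CFTR knockout and 1 wild type piglet were compared. The authors deposited raw UMI counts for each gene in each nucleus. Cell Ranger, Seurat 4.0 and R 4.0.2 were used, per the submitters' processing notes; aligner, build and annotation: not given in the sources used here. The deposited tables held 6054 knockout barcodes (16623086 UMIs) and 4715 wild type barcodes (18731495 UMIs).

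Nuclei with under 200 genes were removed (0 and 1). Scrublet's own threshold called 1 nucleus per library and had not worked, so the highest scores were removed at 0.8% per 1000 nuclei (293 and 178). The remaining nuclei were clustered (scanpy 1.11.5, Leiden, resolution 1, 2000 variable genes, 30 components, 15 neighbours) without receptors, CFTR and mitochondrial transcripts, and named from marker lists (at least 3 markers, depth at least 0.333 of the library's). Classes were compared where the top 10 genes of each of their clusters held at least as many own markers as markers of any different type. Mature clusters 2 and 3 and immature cluster 9 passed with 0 own markers and 0 of another type, so this check lends their names no support. Their names rest on the 12, 11 and 12 markers found by the naming rule. A fibroblast cluster failed the check, so fibroblasts were not compared as a class of their own. Fibroblast-like nuclei remain in the pooled classes outside the lineage, as 815 of 3201 knockout and 806 of 2370 wild type nuclei. They hold 24 of 86 and 15 of 48 receptor UMIs there.

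Groups came from the genotype label. Shares have Clopper-Pearson, levels Poisson and ratios conditional binomial intervals (95%, scipy 1.17.1), for counting error alone. Log2 ratios have the knockout on top unless stated. A library at 0 was set to 3 UMIs. A gene was past the fold at 2-fold with at least 20 UMIs. The ratio step was tested on simulated data. Alternatives included TMM scaling (edgeR 4.0.16). Named receptors were the 15 with most UMIs, those with the highest and lowest ratios in mature nuclei, class I receptors with most UMIs, those found outside the lineage, receptor pairs, and a list of receptor-related genes. Receptors of nuclei with 3 or more receptor UMIs, and single exceptions, were chosen after their values were seen. Members and lists were chosen with earlier results of these data known.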

Additional observations from a re-analysis of the deposited data

Results flagged for a closer look

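Of 8256 rows that carry only an identifier, 13 are named as odorant receptors in a table of gene names and belong to none of the comparisons above. They were looked at because they hold receptor signal in data not otherwise used, at 1.92 CPM (1.28 to 2.75, 29 UMIs in 27 nuclei) in the knockout library and 1.11 CPM (0.669 to 1.73, 19 UMIs in 15 nuclei) in the wild type library, with overlapping intervals. In mature neuron-like nuclei they had 5 and 8 UMIs, or 1.74 CPM (0.564 to 4.05) and 2.12 CPM (0.917 to 4.18), and in classes outside the lineage 15 and 4 UMIs, or 1.65 CPM (0.921 to 2.71) and 0.512 CPM (0.139 to 1.31). No neuronal nucleus with a UMI of these rows, 7 in the CFTR knockout and 11 in the wild type animal, also had a UMI of a receptor with a symbol. Of all nuclei of the lineage, 4.12% in the CFTR knockout and 4.03% in the wild type animal had such a UMI. So few nuclei could therefore not show whether these receptors exclude each other.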

How the results depend on the processing

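No paired analysis was possible because there is 1 library per genotype. Of 312 recomputed values, 273 stayed within the counting interval or count limit of the reported value, 37 moved beyond it and 2 whose interval excluded 0 turned direction, and the cause of these moves was not tested unless stated. The level over all nuclei does not use the classes, so other settings of clustering and naming could not move it. Those values are counted among the 273.

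The log2 ratio of receptor level over all nuclei was -0.19 (-0.63 to 0.24) when a receptor needed at least 2 UMIs in a nucleus and 0.32 as reported; without OR3A1, an alternative chosen after seeing the data, it was 0.072 (-0.22 to 0.37). The wild type log2 ratio of mature over immature nuclei was -0.00085 when libraries were clustered separately and 1.15 at 2 UMIs, and its interval included 0 in 5 of 10 alternatives. Its knockout value was 2.17 when nuclei were named individually.

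Fewer UMIs lower detection by construction. Thinned to 1000 UMIs, the shares of nuclei with a receptor were 2.36% and 2.07% of mature and 1.73% and 1.29% of immature nuclei in the CFTR knockout and wild type animal. At 2 UMIs of a receptor they were 1.30% and 1.57%, and 0.746% and 1.15%.

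The share of positive nuclei with exactly 1 receptor, and the share of the leading receptor, were 100% in mature nuclei of both libraries after thinning and at 2 UMIs, and in those of the wild type library with at least 500 genes or with nuclei named on their own. In wild type immature nuclei the share with exactly 1 receptor was also 100% with no doublet removal, thinned and at 2 UMIs. Every second receptor in a mature or immature nucleus had 1 UMI, so the limit of 2 UMIs removed it by construction. Thinning also makes a second receptor less likely to be seen. The values of 100% under these settings are therefore not evidence for a single receptor per neuron.

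The share of receptor UMIs in the neuronal lineage was 29.1% in the CFTR knockout and 65.9% in the wild type animal with nuclei named on their own, 86.6% and 95.3% at 2 UMIs, 61.1% in the knockout library without OR3A1 and 66.8% in the wild type animal with no doublet removal. The class I share in mature nuclei was 58.6% in the knockout library at 2 UMIs and 15.4% in the wild type library clustered on its own. NCAM2 and NQO1 were found in 0% of class I knockout nuclei with nuclei named on their own, and NCAM2 in 0% of class I wild type nuclei with the libraries clustered apart. The number of receptors past 2-fold in mature nuclei was 1 at a limit of 40 UMIs and 2 or 3 otherwise. Their median log2 ratio, reported as -0.26, also changed sign, to 0.57 with the libraries clustered apart and 1.97 at 40 UMIs, and was -2.29 at resolution 0.5, as it rests on 1 to 3 receptors.

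Leaving out symbols with a point and digit was not run, since no member has one, and thinning left no receptor with 20 UMIs for the median. Depth is a limit: few nuclei have more than 1 receptor UMI, so a second receptor is rarely detectable. The choice by symbol is a further limit, since receptors in rows without a symbol are not among the members.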
